A study of Mus musculus with 36 samples.

Results

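The genes followed here are the Cyp2 family of cytochromes P450 in mouse liver and in hepatocytes taken from it. Members were all genes in the deposited count table whose symbol is Cyp2, a single letter and a number, which left out the pseudogenes of the family. There were 48 such genes among 54232, all annotated as protein coding, and 35 of them had enough counts to be tested among 14932 genes tested in all.

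Cytochromes P450 are haem enzymes of the endoplasmic reticulum that insert oxygen into lipophilic molecules, with electrons passed on from NADPH by the reductase Por. The Cyp2 family is the main group of hepatic P450s that handle drugs, solvents and plant compounds, and several members also act on steroids, bile acids, fatty acids, retinoids and vitamin D. Many Cyp2 genes are confined to one part of the liver lobule, differ between males and females, or are induced through the nuclear receptor CAR (Nr1i3). Their mRNA is known to decline when hepatocytes are taken out of the liver and kept on plastic or collagen.

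Libraries came from 12 female mice on a C57BL6 background, 6 per genotype. HNKO mice carried floxed alleles of Nampt, which encodes the rate-limiting enzyme of NAD salvage, and a Cre driven by the albumin promoter, so that deletion is directed to hepatocytes. WT mice were their littermates, which the paper describes as floxed too. All 12 mice ate the same purified diet (PD), started at an age of 10 to 12 weeks and kept up for 3 to 5 weeks. Each mouse gave a piece of the median lobe cut off before collagenase (L), a washed cell suspension of the remaining lobes (CS) and cells cultured for 24 h on collagen (PH). Any difference between L and the other sample types is therefore also a difference between lobes. The culture medium described for the study's hepatocytes contained dexamethasone and insulin. The WT liver library of mouse 558 was left out, which leaves 35 of 36 libraries, with 5 WT livers and 6 libraries in each of the other groups.

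The 35 libraries held 8698735 to 20350519 counted fragments each. Nampt averaged 40.95 ± 7.88 CPM (counts scaled to library size) in HNKO livers and 81.5 ± 25.1 CPM in WT livers (SD), and was lower in HNKO in all 3 sample types, by 0.99 to 1.34 on the log2 scale. Hepatocyte markers made up 106000 CPM or more of every liver library. The 12 cholangiocyte markers summed to 126 to 1494 CPM in HNKO livers and 82.5 to 107 CPM in WT livers, without overlap. Of the 12 markers, 6 passed the test as higher in HNKO livers, where 1.03% of all genes tested did. The liver of HNKO mouse 552 had the highest sum (1494 CPM) and the lowest Cyp2 content. In these bulk libraries fewer hepatocytes and less Cyp2 mRNA per hepatocyte cannot be told apart.

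Most members stand in tandem clusters in the mouse genome (GRCm38). All 15 Cyp2c genes are on chromosome 19, all 8 Cyp2d genes on chromosome 15, all 8 Cyp2j genes on chromosome 4, and 15 members of the Cyp2a, b, e, f, g, r, s and t subfamilies on chromosome 7. Cyp2u1 and Cyp2w1 stand alone on chromosomes 3 and 5. Because neighbours in a cluster are near copies, the share of each transcript that a single 51-base read could not place was computed. This is the share of the transcript's 51-base windows that also occur in another gene. It treats reads singly, although fragments were sequenced from both ends and the other end may place them. It was 59.7% for Cyp2c40, 53.8% for Cyp2c69, 52.1% for Cyp2c67, 42.5% for Cyp2c68, 37.9% for Cyp2a4 and 36.2% for Cyp2a5. It was 36.4% for Cyp2d11, which was not tested, 35.1% for Cyp2d10, 29.3% for Cyp2c37, 26.8% for Cyp2b13 and 25.1% for Cyp2c54. It was 8.3% for Cyp2b10, 3.8% for Cyp2e1 and 0.0% for Cyp2c70 and Cyp2c23. How fragments with more than one placement were counted is not given in the sources used here. Levels of Cyp2c40, Cyp2c67, Cyp2c68, Cyp2c69, Cyp2a4, Cyp2a5, Cyp2d11, Cyp2d10, Cyp2c37, Cyp2b13 and Cyp2c54 are therefore less certain than those of members with a low share.

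The closest pair among the abundant members is Cyp2a4, a testosterone hydroxylase, and Cyp2a5, the coumarin and nicotine hydroxylase. They differ at 23 of 1482 coding bases (98.4% identity). Cyp2a4 passed the test in PH against L in both genotypes and Cyp2a5 in neither. When the 3 libraries of a mouse were fitted as a block, Cyp2a5 passed in HNKO. Whether the pair differed from each other was not tested. Their distinction rests on stretches such as the following 51 bases of exon 2, starting at coding base 206, where capitals mark the 3 bases that differ (GRCm38, plus strand, chr7:26307675-26307725 for Cyp2a4 and chr7:26835820-26835870 for Cyp2a5).
Cyp2a4: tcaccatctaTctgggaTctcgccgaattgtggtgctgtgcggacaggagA
Cyp2a5: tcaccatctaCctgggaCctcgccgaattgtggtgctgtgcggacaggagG

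The second set is shown because the closely related Cyp2b10, Cyp2b9 and Cyp2b13 moved in opposite directions in culture. Cyp2b9 and Cyp2b13 share 99.3% of the 300 bases around their start (250 before and 50 after, RefSeq, GRCm38), whereas Cyp2b10 shares 71.7% with each. The promoters of Cyp2b10 (chr7:25897408-25897707) and Cyp2b9 (chr7:26173159-26173458) follow, both on the plus strand, with matches to the C/EBP motif TTGCNNAA in capitals.
Cyp2b10: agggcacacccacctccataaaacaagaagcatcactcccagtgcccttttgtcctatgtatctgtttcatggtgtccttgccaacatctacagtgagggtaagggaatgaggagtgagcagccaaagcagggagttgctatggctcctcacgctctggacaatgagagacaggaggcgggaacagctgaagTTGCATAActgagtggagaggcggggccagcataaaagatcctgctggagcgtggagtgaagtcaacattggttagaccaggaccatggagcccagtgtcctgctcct
Cyp2b9: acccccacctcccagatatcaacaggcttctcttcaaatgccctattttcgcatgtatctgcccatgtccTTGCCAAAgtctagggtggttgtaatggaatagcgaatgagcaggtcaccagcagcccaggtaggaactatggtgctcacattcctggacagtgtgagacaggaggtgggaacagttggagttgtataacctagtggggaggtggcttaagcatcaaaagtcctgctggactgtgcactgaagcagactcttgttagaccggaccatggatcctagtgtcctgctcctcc

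In Cyp2b10 the C/EBP match is TTGCATAA, and these 8 bases also match the D-box motif TTATGNAA on the other strand. In Cyp2a4 and Cyp2a5, too, the C/EBP and D-box matches are the same 8 bases. The promoters of Cyp2b10, Cyp2b9 and Cyp2b13 held no TATAAA. Of the 30 promoters found for 29 tested members, TATAAA was present in 18 (60.0%, against 13.6% of 32851 promoters of all genes), TTGCNNAA in 10 (33.3% against 10.8%), the HNF4 alpha motif CAAAGTCCA in 5 (16.7% against 0.47%), TTATGNAA in 3 (10.0% against 3.38%) and the HNF1 motif TTAATNATT in 0 (0.0% against 1.47%). The 5 HNF4 alpha matches were all in Cyp2c genes, Cyp2c40, Cyp2c67, Cyp2c68, Cyp2c69 and Cyp2c70. The first 4 are near copies, with coding identities of 92.2 to 97.7%. TTATGNAA stood in Cyp2b10, Cyp2a4 and Cyp2a5, and the promoters of the last pair share 97.7% of their bases. Near copies are thus counted more than once in these shares, which do not describe the family as a whole. Both strands were searched, and a match is only a description of the letters in the window.

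Cyp2 transcripts took up a large part of the liver libraries and far less of the cultured ones. The 48 genes together held 0.876 to 1.90% of all counts in HNKO livers and 1.33 to 1.70% in WT livers, 1.06 to 1.83% in HNKO suspensions and 1.16 to 1.83% in WT suspensions, and 0.0907 to 0.310% in HNKO cultures and 0.234 to 0.579% in WT cultures. The liver and suspension ranges overlapped between genotypes, and no culture of either genotype reached the lowest liver or suspension. Per 100 CPM of the hepatocyte markers, the family summed to 6.34 to 17.1 CPM in HNKO livers and 7.76 to 11.2 CPM in WT livers, and to 1.75 to 4.598 CPM in HNKO cultures and 4.175 to 8.602 CPM in WT cultures.

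Per transcript length, Cyp2e1, which oxidises ethanol, acetaminophen and small solvents around the central vein, was the leading member in the liver. It averaged 2874 ± 1237 RPKM (CPM per kilobase of exon) in HNKO livers and 3185 ± 681 RPKM in WT livers (SD), 39.6% and 36.5% of the family's summed RPKM. Cyp2d26 came next with 492 ± 137 RPKM in HNKO livers and 657 ± 54.8 RPKM in WT livers. In each genotype the lowest Cyp2e1 liver (943 RPKM in HNKO, 2181 RPKM in WT) stood above the highest Cyp2d26 liver (666 RPKM in HNKO, 753 RPKM in WT), whereas the members that followed overlapped one another from mouse to mouse.

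In culture the order changed. In WT cultures Cyp2a5 led with 302 ± 150 RPKM (19.1% of the family, against 3.1% in WT livers), followed by Cyp2e1 with 286 ± 106 RPKM (18.1%), and their ranges overlapped. In HNKO cultures Cyp2e1 still led with 126 ± 68.1 RPKM, Cyp2d26 had 84.2 ± 36.4 RPKM and Cyp2a5 78.3 ± 71.5 RPKM, again with overlapping ranges. Cyp2b10 held rank 33 in HNKO livers and 31 in WT livers, and rank 15 in HNKO cultures and 8 in WT cultures. The plot of the family's make-up shows these shifts.

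**Figure D1:**
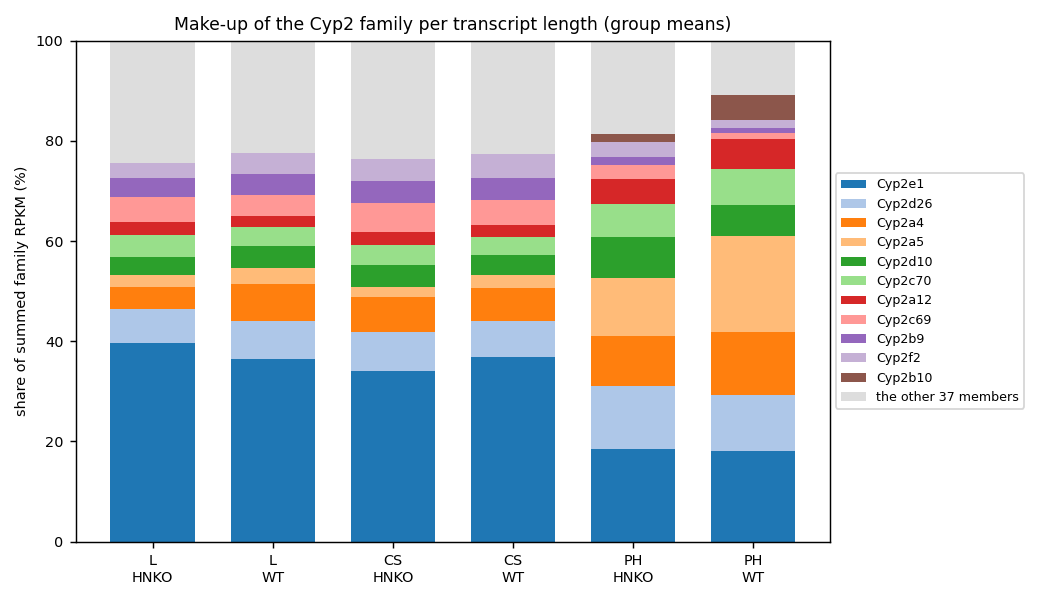
Share of the summed Cyp2 RPKM (y axis, percent) held by 11 members and by all other members together, from group means of the liver (L), cell suspension (CS) and cultured hepatocytes (PH) in HNKO and WT mice. Cyp2e1 takes 34.1 to 39.6% in L and CS and 18.1 to 18.6% in PH, where Cyp2a5 takes 11.6% in HNKO and 19.1% in WT.

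To see what culture did to the family, PH was compared with L within each genotype, gene by gene, with edgeR's quasi-likelihood test. A gene passed at a p under 0.05 after Benjamini-Hochberg adjustment over all genes tested (adjusted p). In HNKO mice 33 of 35 members were lower and 1 was higher, and in WT mice 31 were lower and 1 was higher. Across all genes tested, 76.2% passed in HNKO (37.7% higher, 38.5% lower) and 75.7% in WT (37.5% higher, 38.2% lower). The median member changed by -3.65 in HNKO and -3.19 in WT on the log2 scale, beside 0.01 over all genes tested in each. The 11 hepatocyte markers tested were all lower as well, with medians of -2.35 in HNKO and -2.13 in WT. Cyp2b10 was the higher member in both genotypes, and Cyp2a5 was the member that passed in neither. With the mouse as a block, all 35 members passed in HNKO, Cyp2a5 among them, where 77.9% of all genes tested passed. In WT 33 members passed in that fit, where 76.7% of all genes tested did.

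Of the 6 members known as pericentral, 5 fell in each genotype in the fit without a block, the exception being Cyp2a5. Cyp2e1 had 87.7, 277 and 501 CPM (lowest, median and highest) in HNKO cultures, against 2036, 6552 and 9256 CPM in HNKO livers. In WT cultures Cyp2e1 had 419, 529 and 919 CPM, against 8408, 6315, 6934, 4707 and 8000 CPM in the 5 WT livers. Cultures and livers did not overlap in either genotype, and Cyp2e1 fell by 4.51 ± 0.39 (SE, log2) in HNKO and 3.48 ± 0.38 in WT (adjusted p = 3e-12 and 6.03e-10).

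Cyp2c29, a pericentral and CAR-inducible epoxygenase of arachidonic acid, had 22.2, 34.9 and 74.2 CPM in HNKO cultures, against 398, 723 and 1133 CPM in HNKO livers. In WT cultures it had 43.8, 116 and 137 CPM, against 1096, 998, 1062, 617 and 842 CPM in WT livers. It fell by 4.12 ± 0.31 in HNKO and 3.15 ± 0.30 in WT. The periportal member Cyp2f2, best known for activating naphthalene in mouse airways, also fell. It had 9.21, 43.5 and 68.1 CPM in HNKO cultures against 200, 450 and 722 CPM in HNKO livers, and 21.9, 59.9 and 91.8 CPM in WT cultures against 571, 436, 1136, 925 and 513 CPM in WT livers. Its log2 changes were -3.40 ± 0.44 in HNKO and -3.66 ± 0.45 in WT.

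The 5 female-predominant members fell in both genotypes, with medians of -4.22 in HNKO and -4.12 in WT. Cyp2b9 had 12.1, 18.1 and 28.0 CPM in HNKO cultures against 274, 493 and 708 CPM in HNKO livers. It had 15.6, 27.4 and 31.4 CPM in WT cultures against 805, 758, 840, 590 and 570 CPM in WT livers. The change was -4.76 ± 0.23 in HNKO and -4.82 ± 0.23 in WT (adjusted p = 1.37e-18 and 1.39e-18). Its neighbour Cyp2b13 showed the furthest fall of all members, -6.17 ± 0.56 in HNKO and -5.74 ± 0.54 in WT, with 0.439 to 5.03 CPM in HNKO cultures against 47.6 to 276 CPM in HNKO livers and 1.27 to 9.71 CPM in WT cultures against 115 to 331 CPM in WT livers. Cyp2c40 had 17.1 to 37.4 CPM in HNKO cultures against 178 to 349 CPM in HNKO livers, and 18.4 to 52.9 CPM in WT cultures against 273 to 490 CPM in WT livers. Cyp2a4 fell by 2.28 ± 0.43 in HNKO and 1.74 ± 0.43 in WT. The male-predominant testosterone hydroxylase Cyp2d9, which was detected in these females at 38.5 to 133 CPM in the livers, fell by 3.65 ± 0.38 in HNKO and 3.36 ± 0.38 in WT. Its level is also less certain, with 21.3% of its 51-base windows shared and 92.5% coding identity with Cyp2d10. Cyp2d10 averaged 449 CPM in HNKO livers and 625 CPM in WT livers.

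The smallest p-values in WT belonged to Cyp2b9, Cyp2c68, Cyp2j5, Cyp2c67, Cyp2c38 and Cyp2c40. Cyp2j5, an arachidonic acid epoxygenase, had 15.6, 19.9 and 39.6 CPM in HNKO cultures against 531, 603 and 796 CPM in HNKO livers, and 29.7, 42.3 and 68.8 CPM in WT cultures against 829, 573, 746, 807 and 626 CPM in WT livers. It fell by 4.71 ± 0.22 in HNKO and 4.0 ± 0.22 in WT. Cyp2c68 had 17.0, 23.0 and 32.3 CPM in HNKO cultures against 281, 388 and 405 CPM in HNKO livers, and 18.7, 31.1 and 40.2 CPM in WT cultures against 397, 332, 460, 414 and 393 CPM in WT livers. Cyp2c67 and Cyp2c38 fell by 3.92 ± 0.22 and 4.99 ± 0.29 in HNKO, and by 3.40 ± 0.22 and 3.98 ± 0.28 in WT. For Cyp2b9, Cyp2c68, Cyp2j5, Cyp2c67, Cyp2c38 and Cyp2c40, every culture lay below every liver of its genotype.

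Cyp2r1, Cyp2j6, Cyp2a12 and Cyp2u1 were also lower in culture. Cyp2r1, which hydroxylates vitamin D, had 5.09 to 7.52 CPM in HNKO cultures against 10.1 to 18.2 CPM in HNKO livers, and 4.65 to 8.43 CPM in WT cultures against 11.1 to 17.8 CPM in WT livers (log2 -1.39 ± 0.17 in HNKO and -1.07 ± 0.18 in WT). Cyp2j6 changed by -0.82 ± 0.11 in HNKO and -1.38 ± 0.12 in WT, and Cyp2a12, which hydroxylates steroids and bile acids, by -2.49 ± 0.30 in HNKO and -1.11 ± 0.30 in WT. Cyp2u1, a fatty acid hydroxylase, fell by 2.16 ± 0.29 in HNKO and 3.19 ± 0.31 in WT.

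The levels of Cyp2a5 in cultures and livers overlapped. Cyp2a5 had 29.7, 90.6 and 413 CPM in HNKO cultures against 64.3, 255 and 750 CPM in HNKO livers, and 268, 580 and 1144 CPM in WT cultures against 307, 762, 591, 522 and 658 CPM in WT livers. The differences of -1.06 ± 0.55 in HNKO (adjusted p = 0.0813) and 0.14 ± 0.57 in WT (adjusted p = 0.831) did not pass, with wide errors in both. With the mouse as a block Cyp2a5 passed in HNKO. Its near copy Cyp2a4 had 52.6, 84.1 and 316 CPM in HNKO cultures against 281, 546 and 974 CPM in HNKO livers, and 118, 288 and 796 CPM in WT cultures against 527, 1704, 1191, 1194 and 1087 CPM in WT livers, with ranges that overlapped between cultures and livers in both genotypes.

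Cyp2b10, the main phenobarbital-inducible member, had 8.10, 12.3 and 50.9 CPM in HNKO cultures, against 0.262, 1.70 and 2.54 CPM in HNKO livers. It had 8.03, 94.2 and 512 CPM in WT cultures, against 2.68, 2.89, 2.32, 6.77 and 2.05 CPM in WT livers, where it was scarce. Every culture exceeded every liver of its genotype, and the gene rose by 3.86 ± 0.71 in HNKO (adjusted p = 1.09e-05) and 5.58 ± 0.76 in WT (adjusted p = 5.87e-08). Of the 5 CAR-inducible members it was the one that rose, while the other 4, Cyp2c29, Cyp2c37, Cyp2c50 and Cyp2c55, fell in both genotypes. CAR itself, Nr1i3, had 0.433 to 1.503 CPM in HNKO cultures against 108 to 503 CPM in HNKO livers, and 1.31 to 4.51 CPM in WT cultures against 205 to 499 CPM in WT livers.

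**Figure D2:**
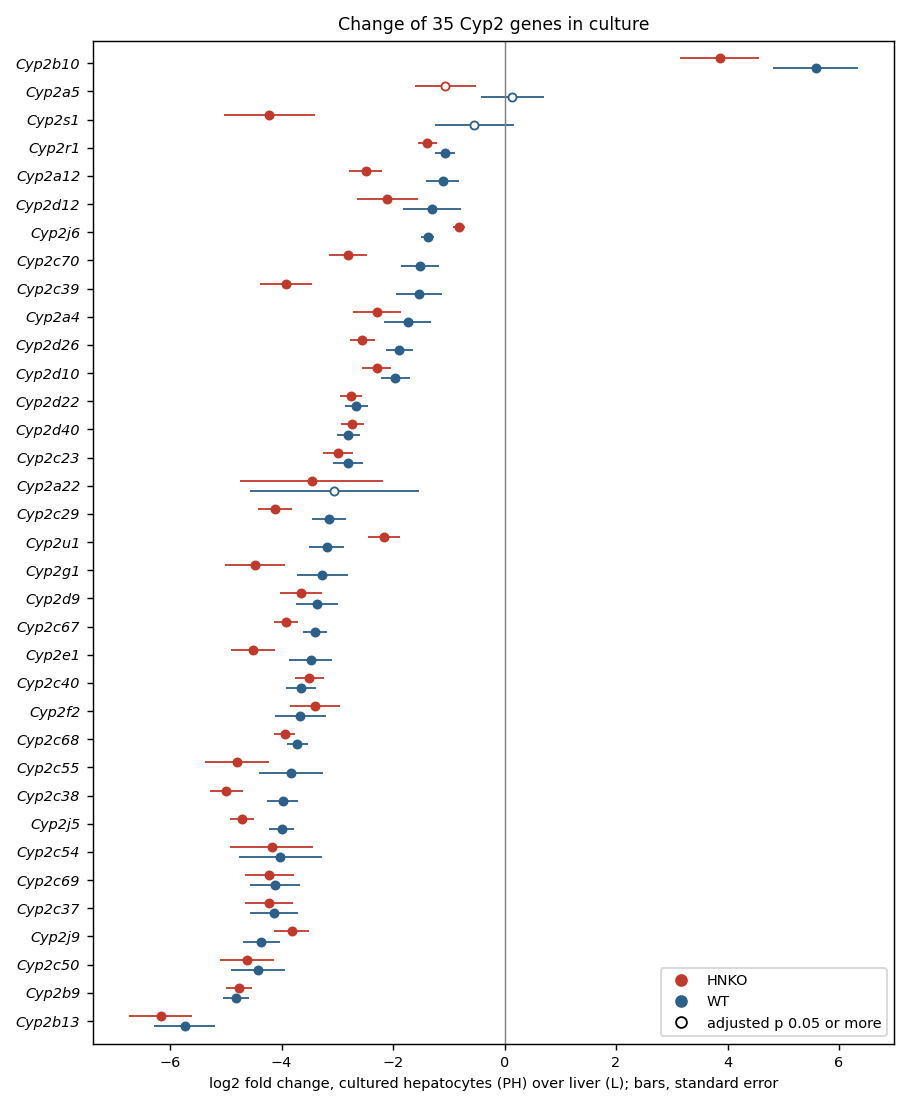
Log2 fold change of PH over L (x axis) for the 35 tested members (y axis), as points with standard errors, in HNKO (red, upper of each pair) and WT (blue). Filled points passed the adjusted p threshold of 0.05. Cyp2b10 lies at 3.86 in HNKO and 5.58 in WT, and all members that passed otherwise lie below 0.

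The steps before and after plating were then compared apart. CS against L gave 0 members higher and 1 lower in HNKO, where 5.37% of genes tested passed (1.94% higher, 3.44% lower), and likewise 0 higher and 1 lower in WT, where 3.5% passed (1.03% higher, 2.46% lower). PH against CS gave 1 higher and 32 lower in HNKO, where 75.7% of genes tested passed (38.1% higher, 37.6% lower), and 2 higher and 31 lower in WT, where 75.1% passed (38.3% higher, 36.8% lower). The higher members were Cyp2b10 in both genotypes (3.03 ± 0.66 in HNKO, 5.56 ± 0.70 in WT) and Cyp2s1 in WT (2.68 ± 0.92, adjusted p = 0.00956). Cyp2s1 did not pass without mouse 548 (adjusted p = 0.0576). It was scarce in both sample types, at 0.161 ± 0.184 RPKM in WT cultures and 0.0227 ± 0.0244 RPKM in WT suspensions (SD). The member that fell in CS was Cyp2s1, an extrahepatic epithelial P450, which had 0 to 0.409 CPM in HNKO suspensions against 0.5265 to 3.27 CPM in HNKO livers, and 0 to 0.312 CPM in WT suspensions against 0.186 to 2.31 CPM in WT livers. Its change was -4.25 in HNKO (adjusted p = 0.00131) and -3.22 in WT (adjusted p = 0.0464). The WT call was lost without a low-count filter and when mouse 540, 542, 548, 554, 556, 562 or 564 was left out (adjusted p of up to 0.243). Markers of other liver cells moved at the same step, with 8 of 12 cholangiocyte markers lower in HNKO suspensions (median -2.40) and 3 of 12 in WT (median -1.84), and 5 of 10 leukocyte markers lower in HNKO (median -2.16) and 6 of 10 in WT (median -2.52). Endothelial markers were higher in 8 of 12 cases in HNKO (median 1.03) and in 1 of 12 in WT (median 0.39). Their part in the Cyp2s1 change was not tested. With the mouse as a block, 3 more members passed in HNKO as higher in CS than in L, namely Cyp2a4 (0.85 ± 0.25, adjusted p = 0.0316), Cyp2b9 (0.42 ± 0.13, adjusted p = 0.0374) and Cyp2f2 (0.82 ± 0.20, adjusted p = 0.00782), where 8.26% of all genes tested passed (488 higher, 745 lower).

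The genotype comparison in culture gave the family's clearest difference between HNKO and WT. In PH, 14 of 35 members were lower in HNKO and 1 was higher, where 12.8% of all genes tested passed (5.14% higher, 7.67% lower). The median member stood at -0.61 on the log2 scale, beside 0.00 over all genes tested. The lower members came from most subfamilies, 3 of 4 tested Cyp2a, 1 of 3 Cyp2b, 3 of 13 Cyp2c, 3 of 6 Cyp2d and 1 of 3 Cyp2j genes, together with Cyp2e1, Cyp2g1 and Cyp2s1. Over all genes tested the split of 767 higher and 1146 lower became 1037 higher and 887 lower with upper-quartile scaling, which left the members at 1 and 14. Hepatocyte markers moved the same way, with 6 of 11 lower in HNKO, 0 higher and a median of -0.51, and their sum was 35450 to 52010 CPM in HNKO cultures and 42020 to 64450 CPM in WT cultures. Cholangiocyte markers (3 of 12 higher, sums of 127 to 494 CPM in HNKO cultures, against 49.3 to 253 CPM in WT cultures) and stellate markers (5 of 12 higher, 1 lower) went the other way. Their part in the Cyp2 differences was not tested.

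Cyp2b10 had 50.9, 8.82, 43.8, 8.10, 13.4 and 11.3 CPM in the 6 HNKO cultures, against 8.03, 97.8, 171, 512, 90.5 and 86.5 CPM in the 6 WT cultures. The WT culture of mouse 544 lay below every HNKO culture, and the other 5 WT cultures above every one. That culture also stood apart in its marker sums, with 253.1 CPM of cholangiocyte markers (49.26 to 84.65 in the other WT cultures), 242.6 CPM of stellate markers (65.42 to 94.52), 5.247 CPM of leukocyte markers (0.406 to 0.9505) and 42020 CPM of hepatocyte markers (52070 to 64450). Their part in its Cyp2 levels was not tested. The difference was -2.82 ± 0.59 (adjusted p = 0.00247).

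Cyp2c39, a retinoic acid hydroxylase, had 1.10, 0.302, 2.54, 0.0787, 0.925 and 0.219 CPM in HNKO cultures, against 0.358, 5.47, 8.71, 4.56, 5.33 and 7.49 CPM in WT cultures. Of the WT cultures, that of mouse 544 fell within the HNKO range and the other 5 lay above it. The difference was -2.60 ± 0.46 (adjusted p = 0.000954). Cyp2c39 shares 11.5% of its 51-base windows with other genes.

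Cyp2a12 had 51.1, 90.5 and 248 CPM in HNKO cultures and 91.7, 331 and 466 CPM in WT cultures (-1.47 ± 0.29, adjusted p = 0.00163). Cyp2c70, which makes the muricholic bile acids of mice, had 20.02, 78.6 and 169 CPM in HNKO and 57.1, 241 and 359 CPM in WT (-1.39 ± 0.33, adjusted p = 0.00588). For both genes mouse 544 gave the lowest WT value. Cyp2c29 had 22.2 to 74.2 CPM in HNKO cultures, against 43.8 to 137 CPM in WT cultures (-1.35 ± 0.28, adjusted p = 0.00247), and here the low WT culture was that of mouse 556.

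Cyp2d26 had 83.5, 145 and 252 CPM in HNKO cultures and 195, 288 and 467 CPM in WT cultures (-1.07 ± 0.22, adjusted p = 0.00251). Cyp2j5 differed by -0.91 ± 0.19 (adjusted p = 0.0026), with 15.6 to 39.6 CPM in HNKO cultures, against 29.7 to 68.8 CPM in WT cultures. Ranges overlapped for both. The remaining lower members were Cyp2a4 (-1.53 ± 0.42), Cyp2a5 (-1.95 ± 0.57), Cyp2e1 (-1.19 ± 0.34), Cyp2d10 (-0.81 ± 0.25), Cyp2d40 (-0.75 ± 0.20) and the scarce Cyp2g1 (-2.06 ± 0.59) and Cyp2s1 (-2.67 ± 0.84). Cyp2g1, an olfactory P450, was under 0.5 CPM in all HNKO cultures, and Cyp2s1 had 0 counts in 3 of them, which allows up to 0.118, 0.164 and 0.226 CPM in those libraries.

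Cyp2j6 was the member that was higher in HNKO, with 34.1, 43.7 and 53.7 CPM in HNKO cultures and 23.3, 31.2 and 42.0 CPM in WT cultures, a difference of 0.48 ± 0.11 (adjusted p = 0.00645). The ranges overlapped. In the livers it had 71.2 to 94.4 CPM in HNKO mice, against 71.7 to 93.6 CPM in WT mice. Its direction was the same with each scaling tried. The 5 female-predominant members had 1 lower in HNKO (Cyp2a4) and 4 that did not pass, and the male-predominant Cyp2d9 did not pass (-0.61 ± 0.38, adjusted p = 0.297). Neither Cyp2f2 (-0.43 ± 0.40, adjusted p = 0.512) nor Cyp2r1 (-0.23 ± 0.17, adjusted p = 0.391) passed.

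These calls in PH changed with the libraries in the fit, and the cause was not tested. Fitted with the 12 PH libraries alone, 0 of the 31 members tested passed in edgeR, where 0.0232% of all genes tested did (Cyp2g1 and Cyp2s1 were among those under the low-count filter of that fit), with 15 at an unadjusted p under 0.05 and adjusted p-values from 0.0555 for Cyp2c29 to 0.12 for Cyp2d10 among the members named, while in the fit of all 35 libraries DESeq2 called 17 members (16.3% of all genes) and limma voom 14 (15.1% of all genes). Without mouse 558, 9 members and 6.19% of all genes were called, and without mouse 544, 18 members and 25.1% of all genes. Cyp2c39, Cyp2a12, Cyp2c29, Cyp2b10, Cyp2d26, Cyp2j5, Cyp2c70 and Cyp2j6 passed whichever mouse was left out. Cyp2e1 did not pass without 542, 554, 558, 564 or 566, Cyp2a5 without 542, 554, 558 or 566, Cyp2a4 without 542 or 558, Cyp2d40 without 564, Cyp2d10 without 540, 542, 552, 554, 556, 558, 564 or 566, Cyp2g1 without 552, 554 or 558, and Cyp2s1 without 542, 548, 552, 554, 558 or 566.

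**Figure D3:**
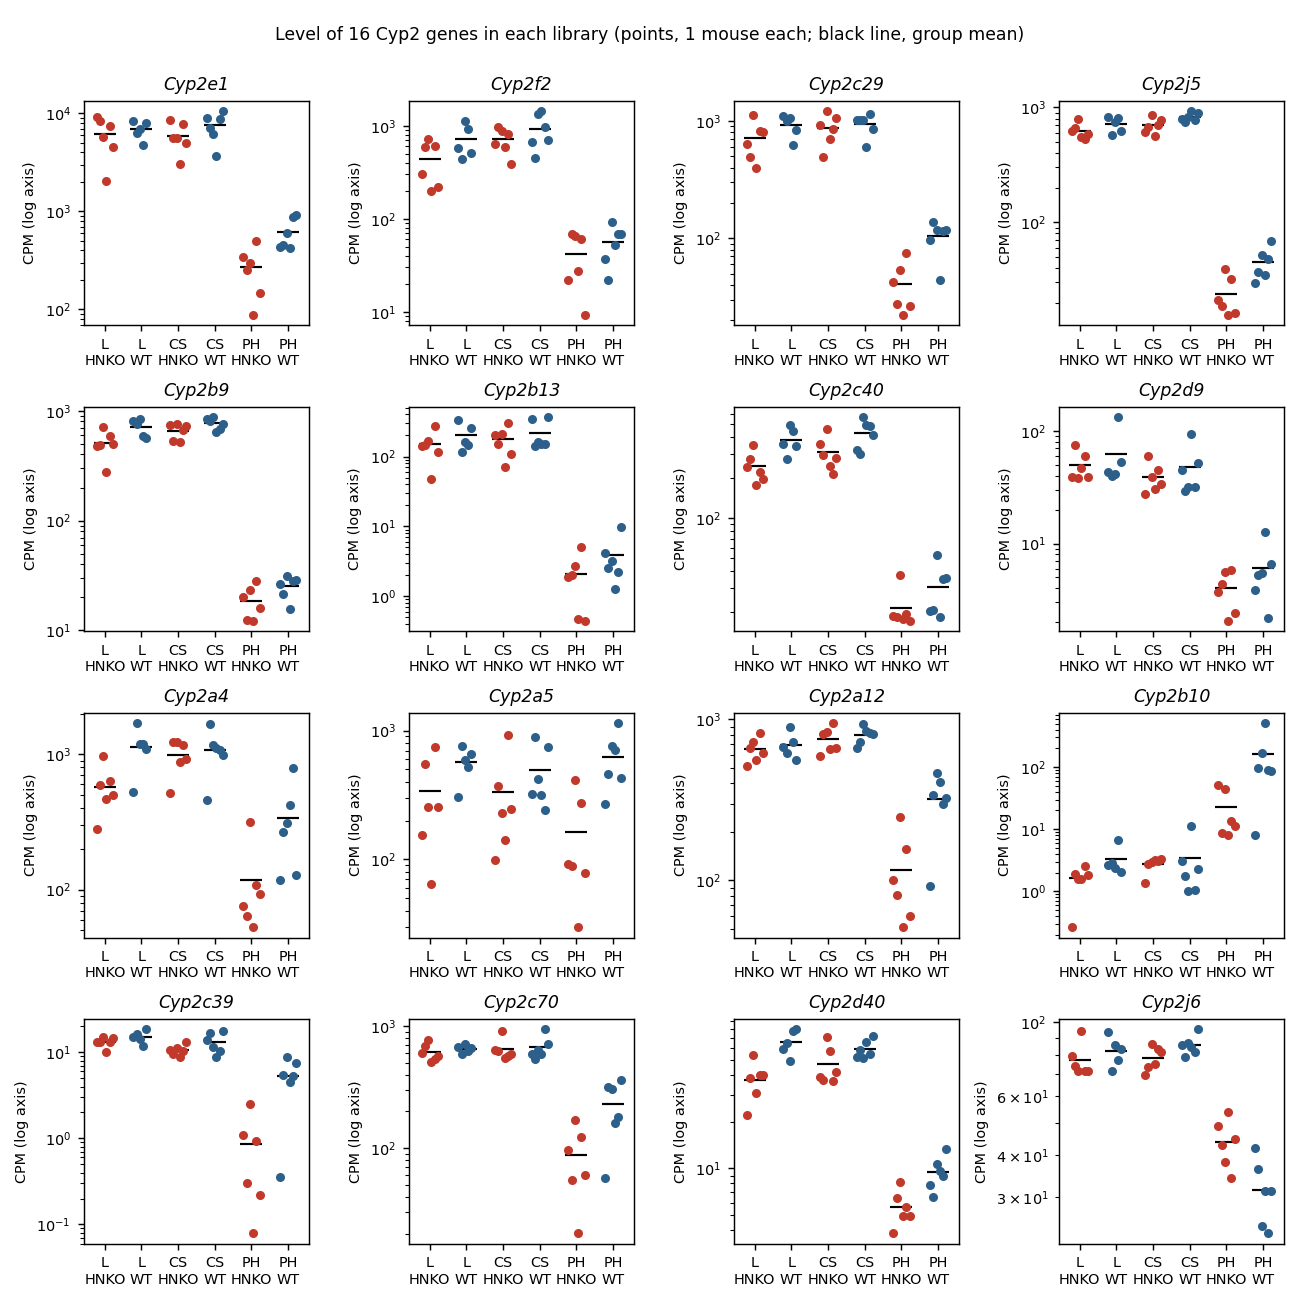
CPM on a log axis (y) of 16 members in every library, with HNKO (red) left of WT (blue) for L, CS and PH, points for single mice and a black line for the group mean. Every PH library of Cyp2e1, Cyp2c29, Cyp2j5 and Cyp2b9 lies below all L and CS libraries, and in PH the single low WT point of Cyp2a12, Cyp2b10, Cyp2c39 and Cyp2c70 is mouse 544.

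In the intact liver few members of the family passed between the genotypes. With 6 HNKO and 5 WT livers, members that did not pass may still differ. Of 35 members 0 were higher and 1 was lower in HNKO, where 1.51% of genes tested passed (1.03% higher, 0.475% lower), and the median member stood at -0.18. The lower member was Cyp2d40, which had 22.04, 38.2, 53.9, 30.6, 40.3 and 40.2 CPM in HNKO livers, against 59.6, 64.5, 49.2, 77.4 and 79.4 CPM in WT livers. The groups overlapped through HNKO mouse 546 and WT mouse 554. The difference was -0.81 ± 0.20 (adjusted p = 0.0295), and it was -0.33 ± 0.19 in CS (adjusted p = 0.439) and -0.75 ± 0.20 in PH (adjusted p = 0.0148). The call in L was lost when any of mice 540, 548, 552, 556, 564 or 566 was left out. In those fits 0 members were called, and 0.191 to 0.933% of all genes tested passed. Without mouse 546 the count was 2, where 2.73% of all genes tested passed. Cyp2a4 had 281 to 974 CPM in HNKO livers and 527 to 1704 CPM in WT livers (-0.99 ± 0.43, adjusted p = 0.222), and Cyp2e1 differed by -0.15 ± 0.35 (adjusted p = 0.866).

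In the cell suspension 0 of 35 members passed in either direction in edgeR, where 0.0268% of genes tested passed (0.0201% higher, 0.0067% lower). In edgeR 1 member had an unadjusted p under 0.05, and DESeq2 and limma voom also called 0, with 2 and 3 members at an unadjusted p under 0.05. Cyp2e1 had 3065, 5599 and 8489 CPM in HNKO suspensions and 3692, 7895 and 10630 CPM in WT suspensions, a difference of -0.35 ± 0.34 (adjusted p = 0.694).

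**Figure D4:**
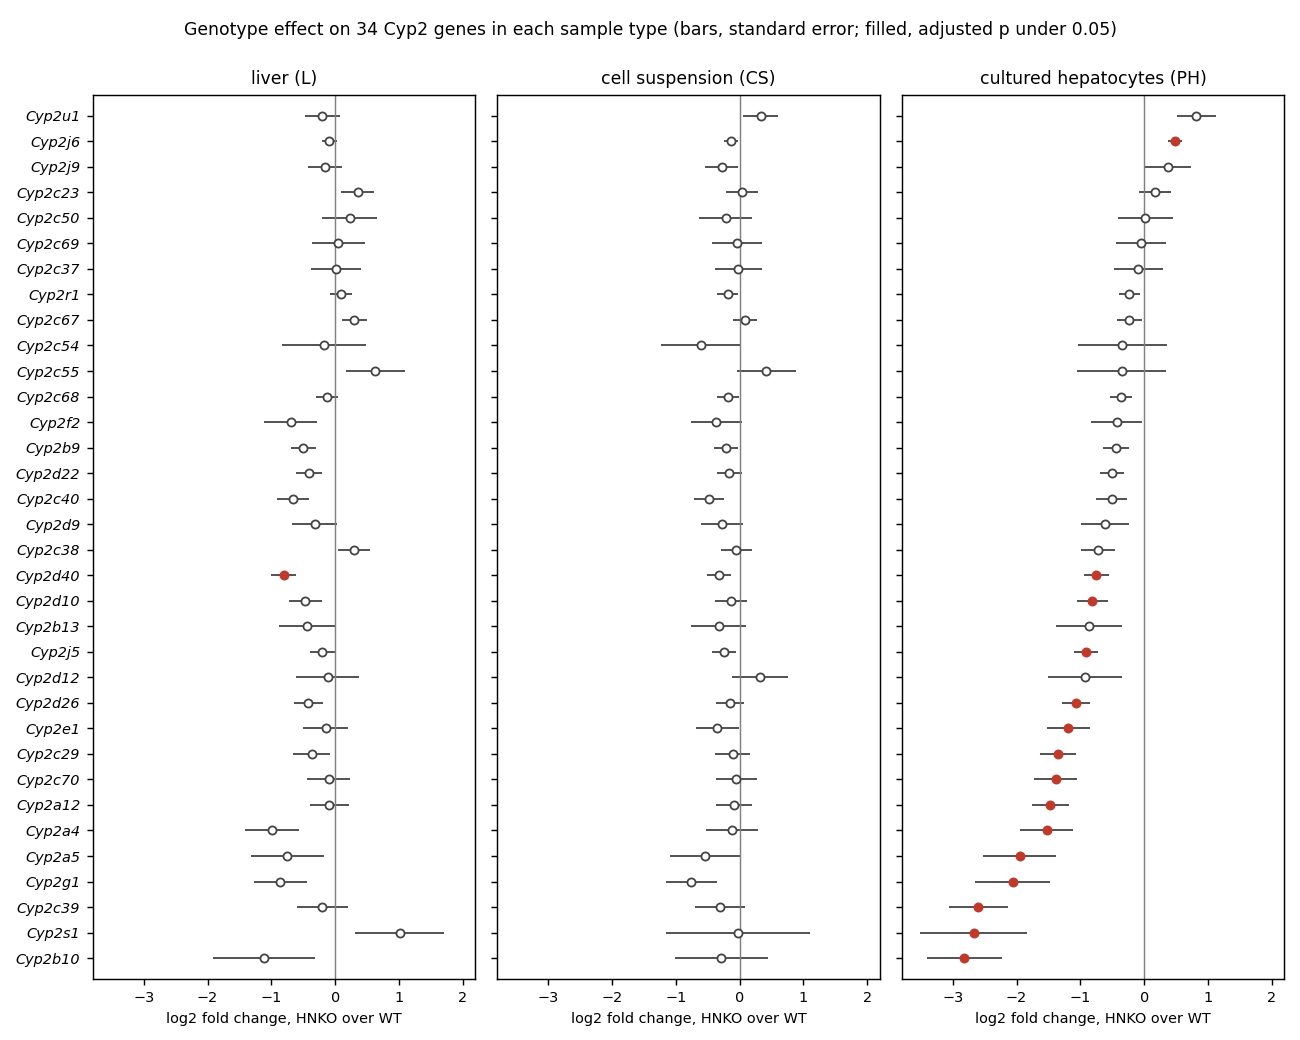
Log2 fold change of HNKO over WT (x axis) for 34 members (y axis) in L, CS and PH, with standard errors; red filled points passed the adjusted p threshold of 0.05. Of the members drawn, 1 is filled in L, 0 in CS and 15 in PH. Cyp2a22 is left out for its wide errors.

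Whether the genotype effect itself differed between sample types was tested as an interaction. For CS minus L, 0 members passed in edgeR and 0 had an unadjusted p under 0.05, in DESeq2 likewise (0.0% of genes tested passed). For PH minus CS, 0 members passed in edgeR, with 9 at an unadjusted p under 0.05 (0.221% of genes tested passed, 0.0402% higher and 0.181% lower). DESeq2 called 3 of 33 members for PH minus CS, where it called 2.24% of all genes. For PH minus L, Cyp2c39 passed as lower (1.58% of genes tested passed, 0.609% higher and 0.971% lower). Its genotype effect was 2.39 ± 0.61 lower in PH than in L on the log2 scale (adjusted p = 0.0404). In the livers Cyp2c39 had 10.02 to 15.1 CPM in HNKO mice, against 11.7 to 18.5 CPM in WT mice, and 3 of the 5 WT livers lay above all HNKO livers. Leaving out any mouse but 544 and 546 ended this call (adjusted p of up to 0.137). Without mouse 544 there were 5 members called, where 6.66% of all genes tested passed.

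With the mouse as a block, which uses the fact that the 3 libraries of an animal belong together, more members passed for PH minus CS and PH minus L. For CS minus L, 0 of 35 members passed, where 0.0% of all genes tested did. Cyp2a4 (1.08 ± 0.36) and Cyp2d40 (0.48 ± 0.18) came closest there, each at an adjusted p of 0.789. For PH minus CS, where 1.32% of all genes tested passed (55 higher, 142 lower), 1 was higher (Cyp2j6, 0.61 ± 0.15, adjusted p = 0.0433) and 6 were lower, namely Cyp2c39 (-2.34 ± 0.60), Cyp2a12 (-1.45 ± 0.33), Cyp2a4 (-1.41 ± 0.36), Cyp2c29 (-1.26 ± 0.23), Cyp2d26 (-0.97 ± 0.23) and Cyp2e1 (-0.97 ± 0.24). For PH minus L, where 2.53% of all genes tested passed (180 higher, 198 lower), 5 were lower, namely Cyp2c39 (-2.44 ± 0.61), Cyp2a12 (-1.45 ± 0.34), Cyp2c38 (-1.06 ± 0.26), Cyp2e1 (-0.96 ± 0.25) and Cyp2c29 (-0.91 ± 0.24). Cyp2b10 did not pass in either (-2.50 ± 0.80 for PH minus CS, adjusted p = 0.1).

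Other genes of the P450 system were read beside the members. In PH against L, 76.2% of all genes tested passed in HNKO and 75.7% in WT, and in HNKO against WT in PH 12.8% did. Among the 6 genes that supply electrons, 5 were lower in PH than in L in each genotype, and Por was higher in WT (0.88 ± 0.34, adjusted p = 0.0196) but did not pass in HNKO (0.63 ± 0.32, adjusted p = 0.0705). Between genotypes in PH, 2 of the 6 were lower in HNKO, Pgrmc1 (-0.45 ± 0.12) and the cytochrome b5 gene Cyb5a (-0.60 ± 0.20). Por had 329 to 524 CPM in HNKO cultures and 462 to 819 CPM in WT cultures, and did not pass (adjusted p = 0.258).

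Of the 12 haem genes, 7 were lower and 1 higher in HNKO cultures than in HNKO livers, beside 38.5% of all genes lower and 37.7% higher. In WT 8 were lower and 1 higher, beside 38.2% of all genes lower and 37.5% higher. The higher one was Hmox1, which breaks haem down. It rose by 1.87 ± 0.26 in HNKO and 3.37 ± 0.30 in WT, and in PH it was lower in HNKO than in WT by 1.37 ± 0.26 (adjusted p = 0.00117). Alas1, the first enzyme of haem synthesis, had 78.0 to 140 CPM in HNKO cultures and 115 to 201 CPM in WT cultures (-0.43 ± 0.42, adjusted p = 0.525).

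All 8 nuclear receptors on the list were lower in PH than in L in each genotype, beside 38.5% of all genes in HNKO and 38.2% in WT. In PH 5 of the 8 were lower in HNKO than in WT, beside 7.67% of all genes. These were Nr1i3 (-1.56 ± 0.38, adjusted p = 0.00706), Hnf4a (-0.63 ± 0.16), Nr3c1, the glucocorticoid receptor (-0.38 ± 0.10), Ppara (-0.92 ± 0.28) and Rxra (-0.51 ± 0.16), whereas Nr1i2, the receptor PXR, did not pass (-0.54 ± 0.29, adjusted p = 0.222). Of 19 liver transcription factors, 2 were higher and 0 lower in HNKO cultures than in WT cultures, beside 5.14% of all genes higher and 7.67% lower. In culture Cebpa fell by 3.24 ± 0.16 in HNKO and 3.60 ± 0.17 in WT, while Cebpb rose by 1.27 ± 0.26 and 0.78 ± 0.27. The 11 pericentral genes outside the family were all lower in PH than in L, with medians of -4.23 in HNKO and -3.84 in WT, and 1 of them, Gulo, was lower in HNKO cultures than in WT cultures. The P450 genes of families 1, 3 and 4 gave 3 of 22 lower and 1 higher in HNKO cultures, with a median of -0.50.

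Spread between mice was uneven across the family. The within-group SD of log2 levels, as the median over the 6 groups, was 0.16 for Cyp2j6, 0.22 for Cyp2j5 and 0.26 for Cyp2a12, and 0.94 for Cyp2a5, 1.23 for Cyp2c54 and 1.6 for Cyp2a22. Cyp2a22 and Cyp2c54 are described here because of this spread, after their values were seen. Cyp2a22 had 34.6 CPM in L, 44.6 in CS and 2.75 in PH of HNKO mouse 540, 102, 152 and 9.38 CPM in HNKO mouse 566, and 20.2, 15.6 and 1.31 CPM in WT mouse 556. In the other 9 mice it was at or under 3.81 CPM in every library. The same 3 mice thus stood apart in L, CS and PH, and the genotype differences of 2.2 ± 1.29 in L, 3.09 ± 1.27 in CS and 1.79 ± 1.52 in PH did not pass. Cyp2a22 shares 19.7% of its 51-base windows with Cyp2a12.

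Cyp2c54 had 4.84 CPM in L and 2.78 in CS of HNKO mouse 566, and 0 counts in its culture, which allows up to 0.164 CPM. The other HNKO mice had 25.2 to 170 CPM in L, 37.2 to 159 CPM in CS and 3.03 to 8.44 CPM in PH. WT mouse 548 was the lowest WT mouse in each sample type, with 36.9, 47.2 and 1.78 CPM. Cyp2b10 in WT mouse 556 was likewise the highest of its genotype throughout, with 6.77 CPM in L, 11.1 in CS and 512 in PH.

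**Figure D5:**
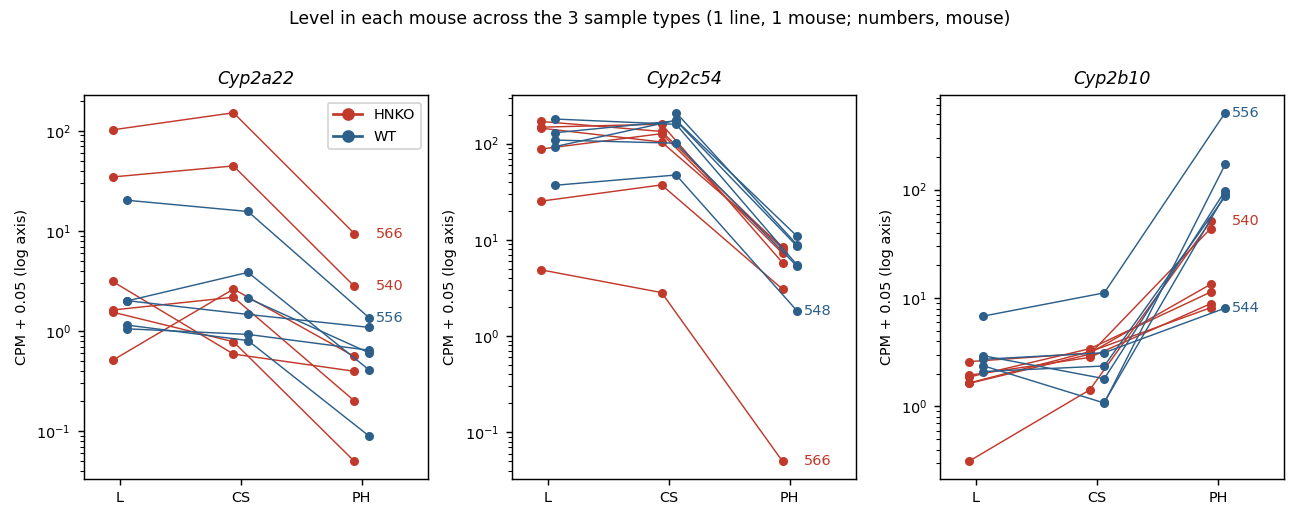
CPM plus 0.05 on a log axis (y) of Cyp2a22, Cyp2c54 and Cyp2b10 in each mouse across L, CS and PH (x), one line per mouse, HNKO red and WT blue, with the mice that stand apart numbered. Cyp2a22 is high in mice 540, 566 and 556 and Cyp2c54 low in mouse 566 in all 3 sample types, and Cyp2b10 rises in culture in every mouse.

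The 13 members not tested were Cyp2b19, Cyp2b23, Cyp2c65, Cyp2c66, Cyp2d11, Cyp2d34, Cyp2j7, Cyp2j8, Cyp2j11, Cyp2j12, Cyp2j13, Cyp2t4 and Cyp2w1. None exceeded 9 counts in a library, and Cyp2j12 and Cyp2w1 had 0 counts in all 35.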

How the data were processed

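Total RNA depleted of rRNA was sequenced as 51-bp paired ends from a stranded kit. The deposited values are raw fragment counts per gene (both ends aligned) that the authors made with STAR and featureCounts 1.6.4 on GRCm38. The labels give STAR 2.7.2b, and the study's methods name an older release for this experiment. Strand and multiple-placement settings are not given in the sources used here. All 36 columns were mapped to samples. Symbols came from GENCODE M21 for 54165 of 54232 IDs; the other 67 held 0.0013% of counts and were kept.

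Counts were tested with edgeR 4.0.16 (TMM, filterByExpr with a minimum count of 10, quasi-likelihood F test, 1 factor of 6 groups, 12 contrasts, Benjamini-Hochberg adjustment over 14932 genes, threshold 0.05). Genes left out held 0.0856% of counts. CPM are TMM-scaled, RPKM divide them by merged exon length, and an error of a fold change is its SE. Intervals at 0 counts take a floor of 3 counts and cover counting error only. Fits were tested on simulated data. Alternatives were RLE and upper-quartile scaling, no filter, all 36 libraries, the compared groups alone, each mouse left out, the mouse as a fixed block (sample types and interactions), a random block in limma 3.58.1 (voom) and DESeq2 1.42.0. Mouse numbers mark 1 animal: deviations from group means correlated with a median of 0.324 between CS and L, 0.101 between PH and L and 0.156 between PH and CS of 1 mouse, and -0.039 to -0.016 between mice. No 2 libraries of a group agreed within sampling noise.

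Members and gene lists were chosen with earlier results of these data known. Any member could be named; values per library were given for the called members with the smallest p and at least 10 CPM in 1 group in PH against L in WT and in HNKO against WT in L and PH (up to 6 per direction), for called interactions, and for 14 members of known role. Identity of coding sequences and shared windows took the place of a planned protein comparison. Promoters were from RefSeq (42 for 40 member symbols). Motifs were searched on both strands.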

Additional observations from a re-analysis of the deposited data

Results flagged for a closer look

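In 150 tests of a group of 5 or 6 libraries for a single value far from the rest (25 quantities in 6 groups, log2 CPM for genes), 18 stood apart. About 1 in 20 would by chance if the quantities were independent and chosen beforehand. Libraries of a mouse are correlated, and Cyp2a22 and Cyp2c54 were taken up for their spread after their values were seen. The number that stood apart therefore cannot be set against that rate. Values below are log2 CPM, with the range of the other libraries of the group.

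WT mouse 544 had the low culture of Cyp2a12 (6.52, others 8.23 to 8.86) and of Cyp2c39 (-1.03, others 2.23 to 3.14). WT mouse 556 had the high liver of Cyp2b10 (2.79, others 1.12 to 1.59), Cyp2d9 (7.06, others 5.33 to 5.73) and Cyp2a22 (4.35), and the low culture of Cyp2c29 (5.46, others 6.58 to 7.10). WT mouse 554 had a high liver of Cyp2d26 (10.4, others 10.11 to 10.17) and a low suspension of Cyp2r1 (3.38, others 3.82 to 3.99).

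HNKO mouse 540 was low for Cyp2b10 in L (-1.35, others 0.77 to 1.42) and in CS (0.59, others 1.54 to 1.80). HNKO mouse 552 was low in L for Cyp2c39 (3.34, others 3.72 to 3.93) and Cyp2d26 (8.85, others 9.71 to 10.22). HNKO mouse 566 was low for Cyp2c54 in CS (1.54) and PH (-2.93) and for Cyp2u1 in PH (-0.45, others 0.80 to 1.40). HNKO mouse 546 was high for Cyp2c40 in PH (5.23, others 4.10 to 4.29), Cyp2c70 in CS (9.83, others 9.10 to 9.31) and Cyp2r1 in PH (2.94, others 2.38 to 2.54).

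The genotype effect on Cyp2c39 differed between PH and L by -2.39 on the log2 scale in the test of that difference.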

How the results depend on the processing

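No called member result changed direction in an alternative that tested it. Of 180 member values not called, 19 changed sign with the mouse as replicate block. Of the member calls of PH against L and PH against CS, those in HNKO (34 and 33) held in every alternative that tested them, and in WT 31 of 32 and 32 of 33 did. With the mouse as replicate block, the count of members called was 4 in CS against L in HNKO (main 1), 7 for the genotype effect in PH minus CS (main 0) and 5 for PH minus L (main 1); it moved no other count by over 1.5 times. A random replicate block in limma voom gave 14 in HNKO against WT in PH (main 15).

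With only the groups compared in the fit, 0 members were called in HNKO against WT in L and PH, in CS against L in HNKO and WT, and in PH minus L; these fits use fewer libraries, Cyp2s1 was not tested in those of CS against L and of PH, nor Cyp2g1 in that of PH, and 7, 15, 3, 1 and 9 members had an unadjusted p under 0.05 in edgeR. Without a low-count filter CS against L in WT gave 0 (1 with an unadjusted p under 0.05). With all 36 libraries PH minus L gave 0 (10 with an unadjusted p under 0.05). DESeq2 gave 3 for PH minus CS (2.24% of all genes) and 3 for PH minus L (5.02% of all genes). The cause of these shifts was not tested. Leaving out each mouse gave 0 to 2 members in HNKO against WT in L (0.191 to 3.41% of all genes) and 9 to 18 in PH (5.64 to 25.1%). It gave 0 to 1 in CS against L in WT (1.99 to 4.58%), 0 to 4 for PH minus CS (0.033 to 4.29%) and 0 to 5 for PH minus L (0.0528 to 6.66%). Over all genes, HNKO against WT in PH gave 1913 calls, 811 with all 36 libraries, 1242 without a filter, 3 with the groups compared alone, and 855 to 3793 when a mouse was left out. In PH, the calls of Cyp2d10 and Cyp2s1 were lost most often, in 10 of 19 and 8 of 18 alternatives. With 5 or 6 mice a group and SEs of 0.5 or more for Cyp2a5, Cyp2b10, Cyp2c54 and Cyp2a22, small differences of these genes could not be seen.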
